A study of Xenopus laevis with 46 samples.

Results

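The receptors of the TGF-beta superfamily, the Smads that carry their signal and the DNA-binding Smad partner Foxh1 were followed in the Xenopus laevis blastula. The RNA came from 2 regions and was captured through a label taken up during transcription. Whether all of this RNA was newly made was not tested. Members were chosen by gene symbol alone, as acvr1, acvr1b, acvr1c, acvr2a, acvr2b, bmpr1a, bmpr1b, bmpr2, tgfbr1 to tgfbr3, smad1 to smad5, smad8, smad9 and foxh1, with their L and S copies and numbered paralogs. The choice gave 39 entries under 36 names, of 49233 distinct names in the table. X. laevis is an allotetraploid frog, so a gene can have an L and an S copy, called homeologs. The members held 17 such pairs, and only foxh1.2.L and tgfbr1.S had no partner among them. smad5, smad8 and tgfbr1.L are not analysed here.

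The embryos were wild type, kept at 22 °C, and each received 10 nl of 50 mM 5-ethynyl uridine (EU) at the 1-cell stage, which gives about 0.5 mM in the embryo. Cells incorporate this uridine analog during transcription, and a biotin tag added to it afterwards lets labelled RNA be captured. Vegetal pole (VP) and animal pole (AP) tissue was cut out every hour at 5, 6, 7, 8 and 9 hours post fertilisation (hpf), so the groups differ only in region and time and every group carries EU. Experiment 1 had 3 clutches and 30 libraries, 3 for each region and time, and experiment 2 added a further clutch, sampled from 6 to 9 hpf as 2 technical replicates each, 16 libraries in all. Only experiment 1 was tested, and the values of experiment 2 are set beside it. Values, medians and ranges of single genes are those of experiment 1 unless experiment 2 is named. Where region means are compared time by time, those of experiment 1 are means of log2(value + 1). Those of experiment 2 are means of the values themselves, so the counts of the 2 experiments use different measures.

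Ligands of this superfamily bring type II and type I receptor kinases together at the cell surface, and the type I receptor then phosphorylates a receptor-regulated Smad. Smad1, Smad5 and Smad9 (also called Smad8) answer to BMP receptors, and Smad2 and Smad3 answer to activin, Nodal and TGF-beta receptors. The phosphorylated Smad binds the common Smad, Smad4, and the complex enters the nucleus, where Foxh1 recruits it to many Nodal and activin target genes. In the frog blastula, Nodal-class signals from vegetal cells induce mesoderm and endoderm, and BMP signals pattern the ventral side. The egg stores the RNA of many parts of this relay, while most Nodal and BMP ligand genes are switched on by the embryo.

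Values are the authors' normalized read counts, and the depth in reads is unknown. They are not divided by gene length, so levels are compared between samples and not between genes. The values of a library summed to between 1783721 and 3273514, and the number of genes above 0 ranged from 4137 to 21140. Libraries with few genes above 0 also listed few members: the VP library at 8 hpf, replicate 2, had 4137 genes and 7 of the 36 members above 0, against 17 to 29 members in the 15 AP libraries of experiment 1. In experiment 2 the VP libraries at 7 hpf stood apart in the same way, with 13 members above 0 in replicate 4 and 8 in replicate 5. Leaving out the sparse library of experiment 1 changed the call of a member in 1 place, foxh1.2.L in VP, which is given there. The regions fitted their labels: 12 vegetal marker genes such as grip2 and vegt summed to between 7230 and 15151 in VP and between 400 and 1515 in AP. The 16 animal marker genes summed to between 444 and 517 in VP and between 877 and 1067 in AP at 5 hpf, and to between 3655 and 4469 in VP and between 5353 and 20760 in AP at 9 hpf. Of these, krt70.S and cdh1.S were listed at 0 in all 15 VP libraries of experiment 1. VP at 9 hpf also held marginal zone mesoderm RNA, with marker sums of 6516 to 14845, against 367 to 2111 in AP.

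**Figure D1:**
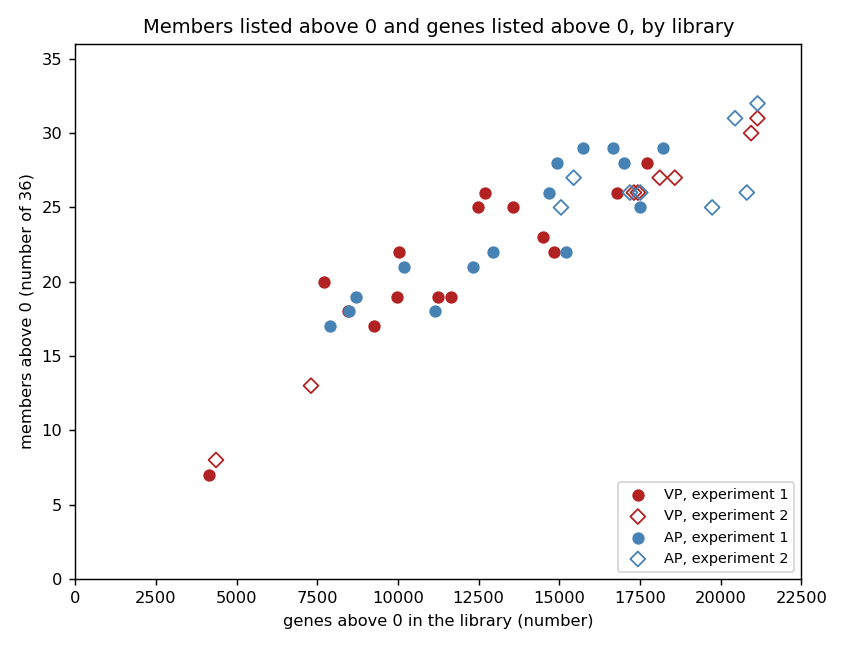
Number of members above 0 (y axis, of 36) against number of genes above 0 (x axis) in each library; VP is red and AP blue, filled circles are experiment 1 and open diamonds experiment 2. The sparse VP libraries at 7 and 8 hpf lie at the lower left, with 7 to 13 members.

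At 5 hpf, the first time sampled, 29 of the 36 members were above 0 in at least 1 library of VP and 29 in at least 1 of AP, and 20 were above 0 in all 3 VP libraries and 15 in all 3 AP libraries. Of the 36 members, 4 were above 0 in all 30 libraries of experiment 1: smad1.L, smad1.S, smad4.1.S and foxh1.L. A further 11 were above 0 in 26 to 29 libraries, 8 in 15 to 25 and 11 in 1 to 14. Both copies of acvr1c, a type I receptor for Nodal ligands also called ALK7, were listed at 0 in all 30 libraries. Whether RNA listed at 5 hpf or later was newly made or stored RNA carried over without label was not tested. In these bulk samples, fewer cells of a type and less RNA per cell cannot be told apart. The filter of at least 10 in at least 3 libraries was passed by 32 members, and acvr1c.L, acvr1c.S, bmpr2.S and tgfbr3.L did not pass.

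**Figure D2:**
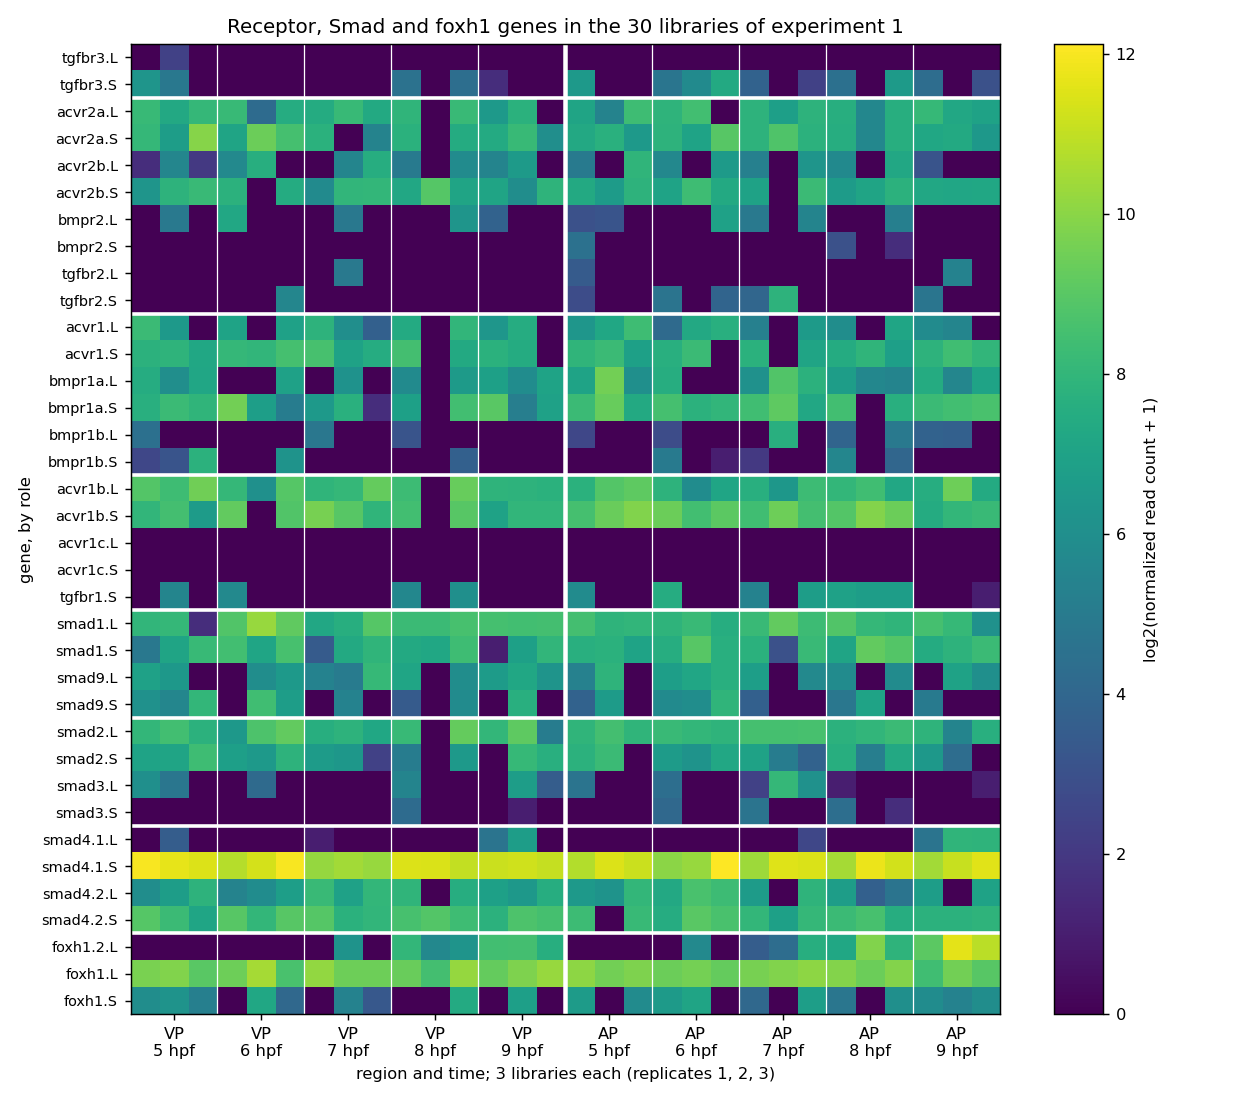
Level of each of the 36 members (rows, grouped by role from receptors at the top to foxh1 at the bottom) in the 30 libraries of experiment 1, VP left and AP right with time rising within each; the colour is log2(normalized read count + 1). foxh1.2.L is at 0 in all 6 libraries at 5 hpf and above 0 in all 6 at 9 hpf, smad4.1.L is at 0 in 5 of 6 at 5 hpf and above 0 in 5 of 6 at 9 hpf, and both acvr1c rows are at 0 throughout.

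Among the receptors that first bind ligand, none was called between the regions. The type II receptors acvr2a and acvr2b bind activins, Nodals and several BMPs. acvr2a.S ran from 0 through a median of 176 to 956 in the 15 VP libraries and from 48 through 189 to 505 in the 15 AP libraries. Its L copy had medians of 179 in VP and 193 in AP, and acvr2b.S had medians of 178 in VP and 150 in AP. The ranges of VP and AP overlapped for each of these 3 genes. The mean of each acvr2a copy was lower in VP at 2 of 5 times in experiment 1. In experiment 2 it was lower at 4 of 4, or 3 of 3 without the sparse VP libraries at 7 hpf. acvr2b.L had medians of 44 in VP and 30 in AP and a highest value of 196 in VP and 243 in AP. The BMP type II receptor bmpr2.L and the TGF-beta type II receptor genes tgfbr2.L and tgfbr2.S had medians of 0 in both regions. tgfbr2.S reached 47 in VP and 225 in AP. The type III receptor tgfbr3.S, or betaglycan, which presents ligand to the type II receptor, ran from 0 to 80 in VP with a median of 0 and from 0 to 166 in AP with a median of 13. In experiment 1 bmpr2.S was above 0 in 3 libraries, all AP, with a highest value of 22, and tgfbr3.L in 1, a VP library, at 4. In experiment 2 the mean of bmpr2.S was higher in VP at 2 of 4 times and lower at 2. It had 12 and 32 in VP at 9 hpf, against 0 and 0 in AP. tgfbr3.L reached 6 in VP and 1 in AP there.

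The type I receptors for BMP ligands had no called difference between the regions either. bmpr1a, or ALK3, is the main BMP type I receptor of early embryos. bmpr1a.S had 201, 303 and 244 in VP at 5 hpf, 743, 112 and 33 at 6 hpf, 91, 207 and 2 at 7 hpf, 117, 0 and 345 at 8 hpf, then 515, 36 and 122 at 9 hpf (replicates 1, 2 and 3). In AP it had 307, 643 and 163 at 5 hpf, 370, 220 and 248 at 6 hpf, 337, 547 and 152 at 7 hpf, 355, 0 and 200 at 8 hpf, then 304, 345 and 396 at 9 hpf. The mean of the log2 values was lower in VP at 5 of 5 times, but the values of the regions overlapped at each of them. bmpr1a.L likewise had the lower log2 mean in VP at 5 of 5 times, with VP values from 0 to 184 and AP values from 0 to 736. The fitted log2 fold changes of VP over AP, averaged over the 5 times, were -1.19 ± 0.76 (SE) for bmpr1a.S and -1.65 ± 1.03 (SE) for bmpr1a.L (limma, adjusted p = 0.602 and 0.589). In experiment 2 the VP mean of each copy, taken on the values and not on their log2, was lower at 3 of 4 times. The exception was 7 hpf, where the VP libraries were sparse and bmpr1a.S had 432 and 0. At 8 hpf its means were close, at 127.0 in VP and 128.5 in AP. acvr1, or ALK2, which also serves BMP ligands, had medians of 91 in VP and 61 in AP for its L copy and 217 in VP and 211 in AP for its S copy. The mean of acvr1.L was higher in VP at 3 of 5 times in experiment 1 and at 4 of 4 in experiment 2, where its 9 hpf values were 511 and 335 in VP, against 79 and 48 in AP. bmpr1b.L and bmpr1b.S had medians of 0 in both regions, with highest values of 27 in VP and 198 in AP for the L copy and 221 in VP and 46 in AP for the S copy.

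The S copy of the activin and Nodal type I receptor gene acvr1b, or ALK4, had the smallest adjusted p between regions averaged over the times. acvr1b.S had 250, 357 and 100 in VP at 5 hpf, 591, 0 and 451 at 6 hpf, 798, 498 and 245 at 7 hpf, 353, 0 and 509 at 8 hpf, then 127, 252 and 250 at 9 hpf. In AP it had 375, 647 and 916 at 5 hpf, 665, 354 and 541 at 6 hpf, 339, 694 and 364 at 7 hpf, 466, 943 and 679 at 8 hpf, then 178, 260 and 294 at 9 hpf. At 5 hpf every VP value was below every AP value, and the regions overlapped at each later time. The VP value of 0 at 8 hpf was that of the sparse library, and the 0 at 6 hpf was in a library with 8455 genes above 0. The averaged log2 fold change of VP over AP was -1.65 ± 0.62 (SE), with a 95% interval of -2.88 to -0.43, an unadjusted p of 0.00835 and a limma adjusted p of 0.294. This was the smallest adjusted p among the 32 members in that comparison, and it did not pass. By time the estimates were -1.54, -2.97, 0.06, -3.57 and -0.25 at 5, 6, 7, 8 and 9 hpf. The lowest fell at 6 and 8 hpf, the times with a VP value of 0, so the average leans on these zeros. In experiment 2 the VP mean was lower at 3 of 4 times and, without the sparse 7 hpf libraries, at 2 of 3. The L copy had medians of 272 in VP and 215 in AP and a fold change of -0.06 ± 0.64 (SE). The TGF-beta type I receptor gene tgfbr1.S reached 64 in VP and 179 in AP. Its mean of log2 values was lower in VP at 5 of 5 times in experiment 1 (-1.60 ± 0.99, SE, limma adjusted p = 0.589). In experiment 2 its mean was lower in VP at 4 of 4 times, or 3 of 3 without the sparse 7 hpf libraries.

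The BMP-regulated smad1 genes were above 0 in every library of experiment 1. smad1.L ran from 2 through a median of 350 to 1241 in VP and from 69 through 280 to 601 in AP. smad1.S ran from 1 through 162 to 392 in VP and from 7 through 211 to 599 in AP. The regions overlapped for both copies, with averaged log2 fold changes of -0.06 ± 0.59 and -0.84 ± 0.73 (SE). smad1.S had the lower mean in VP at 5 of 5 times in experiment 1 and at 3 of 4 in experiment 2, or 2 of 3 without the sparse VP libraries at 7 hpf. smad9.L had medians of 76 in VP and 57 in AP, and smad9.S had medians of 41 in VP and 13 in AP. By time, over the 6 libraries of each, smad1.L had medians of 251.0, 377.5, 305.5, 310.0 and 358.0 at 5, 6, 7, 8 and 9 hpf, and its trend of 0.18 ± 0.21 per hour (SE, log2) did not pass.

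The Smads of the activin, Nodal and TGF-beta branch were not called between the regions. smad2.L ran from 0 through 257 to 605 in VP and from 43 through 253 to 391 in AP, and its only 0 was the sparse VP library. smad2.S ran from 0 through 99 to 327 in VP and from 0 through 87 to 305 in AP. Neither copy separated the regions, with averaged log2 fold changes of -0.55 ± 0.66 and 0.22 ± 0.98 (SE). smad3.L and smad3.S had medians of 0 in both regions, with highest values of 108 in VP and 265 in AP for smad3.L and of 18 in VP and 24 in AP for smad3.S.

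Among the common Smad genes, only smad4.1.L was called over time, and smad4.1.S was not. smad4.1.S was listed from the start, with 4125, 3266 and 2872 in VP at 5 hpf, 1765, 2627 and 4058 at 6 hpf, 1171, 1413 and 1222 at 7 hpf, 2836, 2798 and 2068 at 8 hpf, then 2246, 2433 and 2114 at 9 hpf. In AP it had 1720, 2865 and 2302 at 5 hpf, 1048, 1225 and 4471 at 6 hpf, 1307, 3009 and 2808 at 7 hpf, 1426, 3501 and 2479 at 8 hpf, then 1381, 2213 and 3079 at 9 hpf. VP lay above AP throughout at 5 hpf, and the regions overlapped at each later time. The mean of smad4.1.S was higher in VP at 4 of 5 times in experiment 1. In experiment 2 it was lower in VP at 3 of 4 times, or 3 of 3 without the sparse 7 hpf libraries. The tests had their narrowest intervals here: the averaged change of VP over AP was 0.12 ± 0.27 (SE, log2), with a 95% interval of -0.41 to 0.65, and the trend was -0.05 ± 0.10 per hour (SE, log2), with an interval of -0.24 to 0.14. Both estimates changed sign under upper-quartile scaling. smad4.2.S ran from 139 through 374 to 511 in VP and from 0 through 257 to 519 in AP. Its mean was higher in VP at 5 of 5 times and at 4 of 4 in experiment 2, yet the averaged change of 0.90 ± 0.62 (SE, log2) did not pass (limma, adjusted p = 0.630). smad4.2.L had medians of 118 in VP and 105 in AP.

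The L copy of smad4.1 appeared late. smad4.1.L had 0, 11 and 0 in VP at 5 hpf, 0 in all VP libraries at 6 hpf, 1, 0 and 0 at 7 hpf, 0 in all at 8 hpf, then 24, 105 and 0 at 9 hpf. In AP it was 0 in all libraries at 5, 6 and 8 hpf, 0, 0 and 5 at 7 hpf, then 24, 247 and 235 at 9 hpf. Every AP library at 9 hpf was above every AP library at 5 hpf, and VP at 9 hpf overlapped VP at 5 hpf. smad4.1.L passed the filter of at least 10 in at least 3 libraries only through 9 hpf, the time at which it was high. Its only other value of at least 10 was the 11 in VP at 5 hpf. Its trend averaged over the regions was 0.94 ± 0.27 per hour (SE, log2), with a 95% interval of 0.40 to 1.48 and a limma adjusted p of 0.0167. This slope describes 1 step at 9 hpf, not a steady rise. Between 9 and 5 hpf smad4.1.L was called in AP (adjusted p = 0.0147) and not in VP (adjusted p = 0.720). The difference between these 2 changes was itself not called. Leaving out replicate 1, 2 or 3 ended the trend call, with adjusted p of 0.217, 0.149 and 0.101. In experiment 2, VP had 0 and 0 at 6 hpf, 0 and 0 at 7 hpf, 12 and 7 at 8 hpf, then 51 and 74 at 9 hpf. AP had 5 and 0 at 6 hpf, 7 and 0 at 7 hpf, 21 and 0 at 8 hpf, then 114 and 161 at 9 hpf. The other clutch thus had its highest values at 9 hpf in each region too, with VP below AP.

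Of the foxh1 genes, foxh1.L was listed from the start and foxh1.2.L appeared with time. foxh1.L, which has the synonym FAST-1 in the reference table, had 833, 900 and 520 in VP at 5 hpf, 695, 1445 and 394 at 6 hpf, 1126, 703 and 696 at 7 hpf, 656, 358 and 1177 at 8 hpf, then 610, 865 and 1220 at 9 hpf. In AP it had 1059, 746 and 865 at 5 hpf, 684, 765 and 606 at 6 hpf, 793, 896 and 1065 at 7 hpf, 942, 675 and 951 at 8 hpf, then 344, 754 and 503 at 9 hpf. No time separated the regions. The averaged log2 fold change of VP over AP was 0.02 ± 0.40 (SE), with a 95% interval of -0.78 to 0.81, and the trend was -0.05 ± 0.14 per hour (SE), with an interval of -0.33 to 0.23. Upper-quartile scaling turned the sign of each. foxh1.S ran from 0 through 16 to 170 in VP and from 0 through 56 to 134 in AP.

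foxh1.2.L, the paralog listed in the reference table under the synonym FAST-3, had the largest trend estimate of the 32 members tested. In VP it was 0 in all libraries at 5 and 6 hpf, 0, 75 and 0 at 7 hpf, 260, 50 and 76 at 8 hpf, then 348, 366 and 191 at 9 hpf. In AP it was 0 in all libraries at 5 hpf, 0, 52 and 0 at 6 hpf, 11, 19 and 195 at 7 hpf, 150, 918 and 237 at 8 hpf, then 539, 3210 and 1897 at 9 hpf. All 6 libraries at 8 hpf and all 6 at 9 hpf were above 0, while all 6 at 5 hpf were listed at 0. At 9 hpf the lowest AP value, 539, was above the highest VP value, 366. Its trend averaged over the regions was 2.53 ± 0.38 per hour (SE, log2), with a 95% interval of 1.78 to 3.27 and a limma adjusted p of 5.3e-08. The size of a fitted change from groups listed at 0 depends on the 1 added to each value, and no fold is given against 5 hpf. In experiment 2, VP had 4 and 0 at 6 hpf, 0 and 0 at 7 hpf, 480 and 444 at 8 hpf, then 992 and 860 at 9 hpf, and AP had 31 and 22 at 6 hpf, 178 and 254 at 7 hpf, 981 and 802 at 8 hpf, then 2428 and 2104 at 9 hpf. The clutch of experiment 2 had higher values at 9 hpf than at 6 hpf in both regions. AP was above VP at 4 of 4 times, or 3 of 3 without the sparse VP libraries at 7 hpf.

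**Figure D3:**
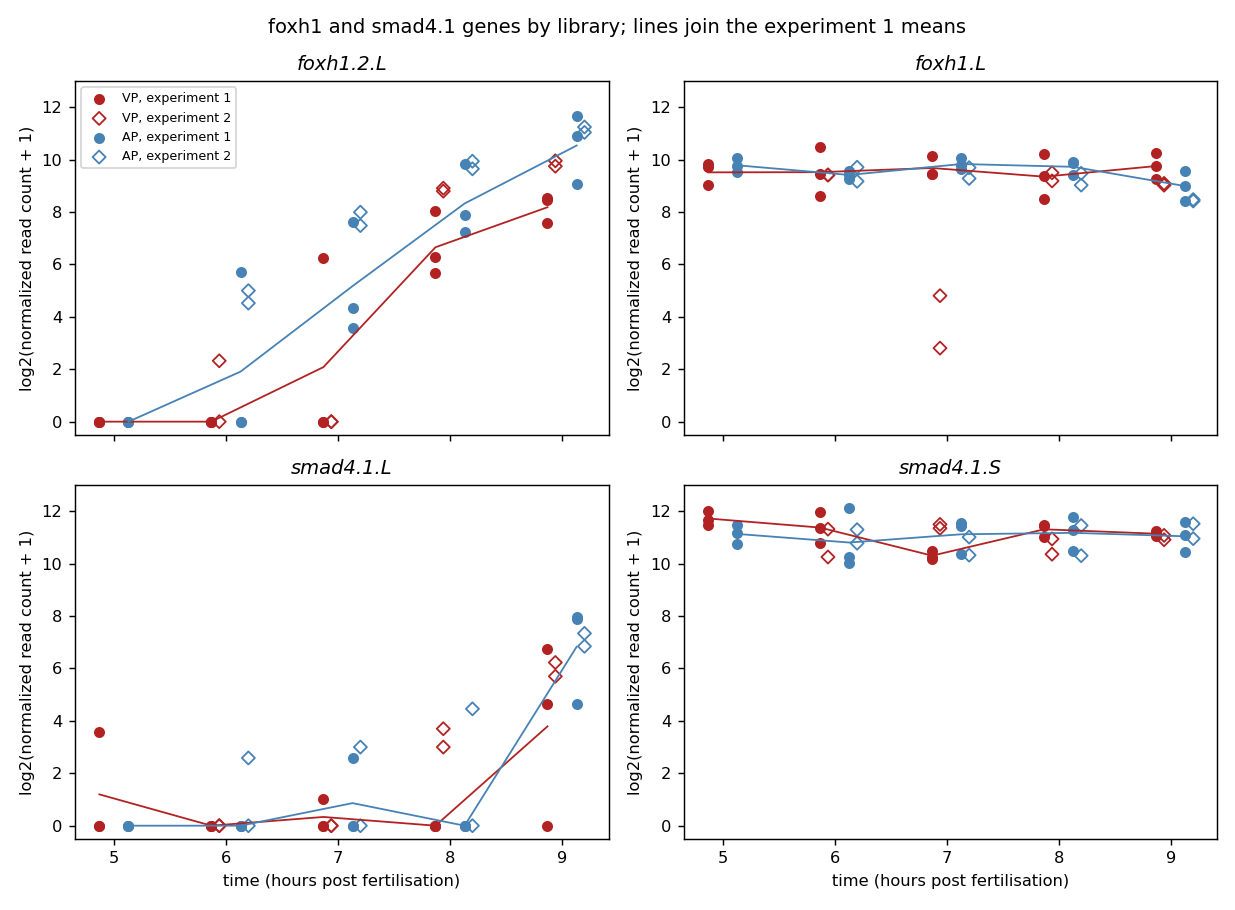
Values of foxh1.2.L, foxh1.L, smad4.1.L and smad4.1.S in each library (y axis, log2 of the normalized read count + 1) by time (x axis, hours post fertilisation); VP is red and AP blue, filled circles are experiment 1, open diamonds experiment 2, and lines join the experiment 1 means of the log2 values. foxh1.2.L is at 0 in all libraries at 5 hpf and above 0 in all at 9 hpf, smad4.1.L is above 0 in 5 of 6 libraries of experiment 1 at 9 hpf, and foxh1.L and smad4.1.S are above 0 in every library of experiment 1.

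VP was compared with AP to show where along the animal-vegetal axis RNA of the transducers was present. No member was called in VP against AP averaged over the 5 times, 0 of 32, and 0.709% of the 19896 genes tested were called (141 genes, of which 127 or 0.638% were higher and 14 or 0.0704% lower in VP). A gene was called at an adjusted p under 0.05 after Benjamini-Hochberg adjustment over all genes tested. At an unadjusted p under 0.05 there were 2 of 32 members, against 2015 of the 19896 genes tested, 1528 of them lower in VP. The members' count was thus below the share of all genes. They were acvr1b.S and the TGF-beta type II receptor gene tgfbr2.S (-1.49 ± 0.74, SE, limma adjusted p = 0.479), both lower in VP. tgfbr2.S was listed at 0 in 14 of the 15 VP and 9 of the 15 AP libraries of experiment 1. Experiment 2 went the other way for tgfbr2.S, with the higher mean in VP at 3 of 4 times, or 3 of 3 without the sparse 7 hpf libraries. Of the 32, 20 had a negative estimate, and 70.8% of all genes did. The median estimate was -0.19 over the members and -0.47 over all genes, on the log2 scale. By role, negative estimates numbered 5 of 7 for type II receptors, 4 of 6 for BMP type I receptors, 3 of 3 for the other type I receptors, 2 of 4 for the BMP Smads, 2 of 4 for smad2 and smad3, 1 of 4 for the common Smads and 2 of 3 for the foxh1 genes. The type III receptor gene tgfbr3.S had the lowest estimate of the 32, at -1.81 (limma adjusted p = 0.534). The intervals set what could be seen: standard errors ranged from 0.27 for smad4.1.S to 1.11 for acvr2b.L, so for many members a several-fold difference was within the 95% interval. Missing the threshold therefore does not show that the regions were alike.

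At single times no member was called either. The share of all genes called was 0.0955% at 5 hpf, 0.0251% at 6 hpf, 0.0101% at 7 hpf, 0% at 8 hpf and 0.377% at 9 hpf, which is 19, 5, 2, 0 and 75 genes. All 19 at 5 hpf and both at 7 hpf were higher in VP, at 6 hpf 3 were higher (0.0151%) and 2 lower (0.0101%), and at 9 hpf 49 were higher (0.246%) and 26 lower (0.131%). At 8 hpf, where limma called no gene, 1349 genes had an unadjusted p under 0.05, and the alternative settings called 0 to 83. Members at an unadjusted p under 0.05 numbered 1, 2, 4, 1 and 0 of 32 at 5, 6, 7, 8 and 9 hpf. Over all 19896 genes tested the counts were 854, 1266, 692, 1349 and 1431. Only the members' count at 7 hpf was above the share of all genes. These members are named after their values were seen. They were bmpr1b.S at 5 hpf, higher in VP, and, lower in VP, tgfbr3.S and acvr1b.S at 6 hpf, smad3.L, bmpr1a.L, tgfbr2.S and acvr2a.S at 7 hpf and acvr1b.S at 8 hpf. All 4 members at 7 hpf had their highest AP value of that time in replicate 2. That library had 7910 genes above 0, the fewest of the AP libraries. For foxh1.2.L at 9 hpf the groups did not overlap, and the log2 fold change of VP over AP was -2.35 ± 2.40 (SE) with an adjusted p of 0.915. When only the 2 groups at 9 hpf were fitted, the same change had a standard error of 0.45 and a limma adjusted p of 8.13e-05. Of 14 alternative settings, this was the only 1 that called it. Animal marker sums at 9 hpf were 4469, 3953 and 3655 in VP and 5353, 20760 and 15125 in AP for replicates 1, 2 and 3. In AP the sums and foxh1.2.L ranked the replicates in the same order, and in VP they did not. At 9 hpf the listed genes above 0 numbered 14824, 12481 and 9245 in VP and 17494, 15202 and 12957 in AP. The part of these in the foxh1.2.L values was not tested.

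**Figure D4:**
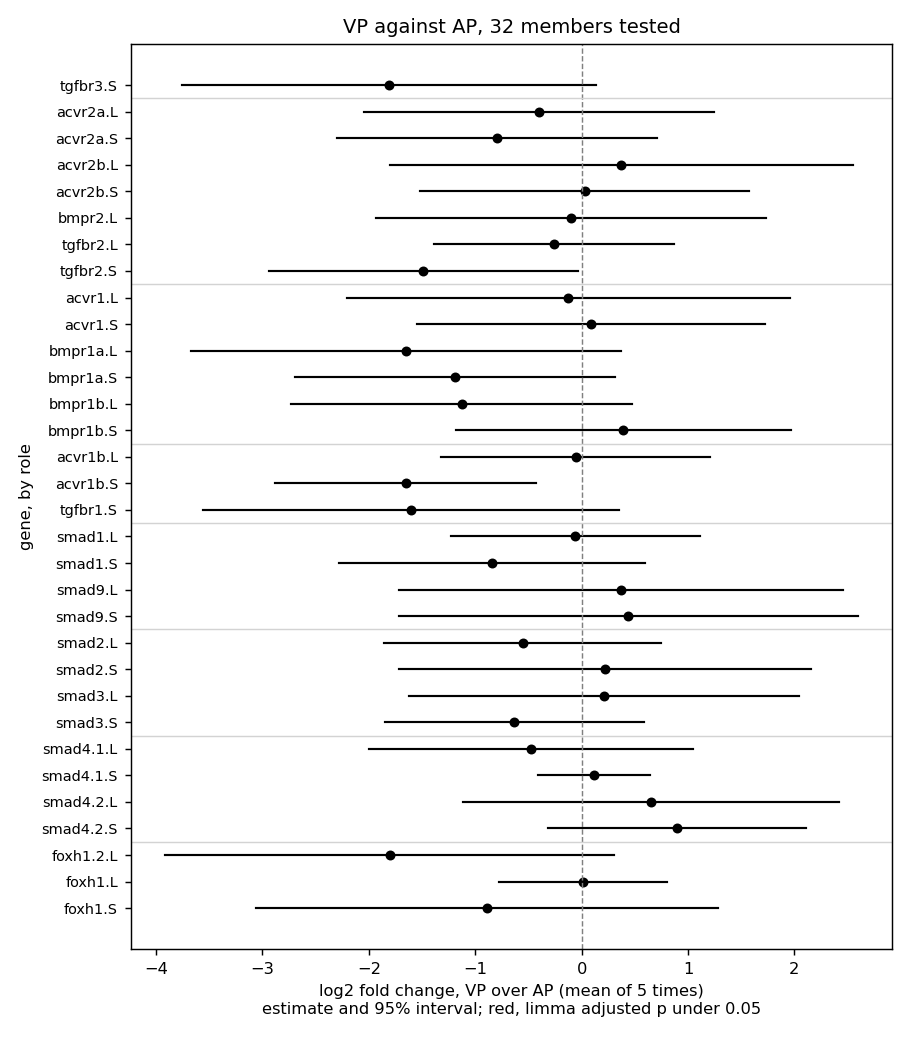
Averaged log2 fold change of VP over AP (x axis) for the 32 members tested, one row per gene grouped by role, with 95% intervals. No member passed an adjusted p of 0.05, and the intervals of acvr1b.S and tgfbr2.S lie below 0 without adjustment.

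Change with time was compared next. In the linear trend foxh1.2.L and smad4.1.L were called, 2 of 32, both higher with time. Of all genes 5.39% were called, 1046 or 5.26% rising and 26 or 0.131% falling, so the members' count lay near the share of all genes. smad4.1.L entered the test only through the time at which it was high. The other 30 members had estimates of -0.81 to 0.24 per hour on the log2 scale and adjusted p of at least 0.293. The lowest was smad9.S, at -0.81 ± 0.39 (SE). Negative estimates numbered 22 of 32 among the members and 48.9% among all genes, and the median was -0.17 over the members and 0.01 over all genes. None of the members fell at the threshold, and few genes of any kind did (0.131%).

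**Figure D5:**
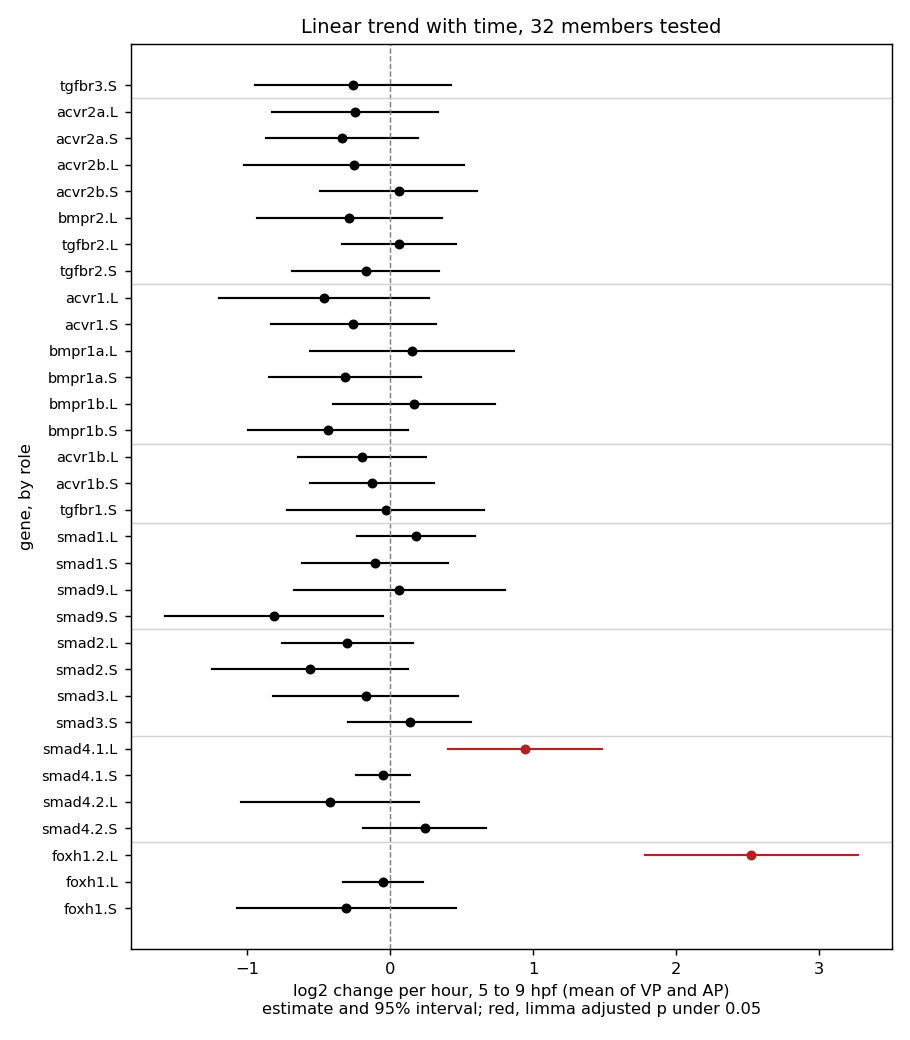
Linear trend from 5 to 9 hpf (x axis, log2 change per hour, mean of VP and AP) for the 32 members tested, one row per gene grouped by role, with 95% intervals; red marks a limma adjusted p under 0.05. foxh1.2.L at 2.53 and smad4.1.L at 0.94 stand to the right of the other members.

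Between 9 and 5 hpf foxh1.2.L and smad4.1.L were called when the regions were averaged, 2 of 32, with 4.09% of all genes called (793 or 3.99% higher and 21 or 0.106% lower at 9 hpf), at limma adjusted p of 2.93e-05 and 0.00723. In AP alone both were called, with 1.72% of all genes called, of which 342 were higher and 1 was lower (0.00503%). In VP alone no member was called, with 1.25% of all genes called (243 or 1.22% higher and 6 or 0.0302% lower). foxh1.2.L came close in VP, at an adjusted p of 0.0535, and 8 of 14 alternative settings called it there, including the one without the sparse VP library (adjusted p = 0.0481). Leaving out replicate 1, 2 or 3 ended its call in AP, with adjusted p of 0.0945, 0.164 and 0.201, and kept its call averaged over the regions, with adjusted p of 0.00691, 0.00372 and 0.00309. For smad4.1.L the same omissions ended the call in AP, with adjusted p of 0.124, 0.258 and 0.365, and the call averaged over the regions, with 0.158, 0.103 and 0.0728. Fitting only the groups compared also ended both calls of smad4.1.L, with adjusted p of 0.299 in AP and 0.151 averaged. The change in VP minus the change in AP was called for 0 of 32 members and 0% of all genes, although 1042 genes had an unadjusted p under 0.05, of which none was a member, and alternative settings called 0 to 18 genes.

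How the authors' counting divided reads between near-identical copies is unknown here, so values of single copies are uncertain to that extent.

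The rest of the pathway was counted over the same trend, in lists that share some genes and were drawn up with earlier results of these data known. Among all genes tested 5.26% rose and the median trend was 0.01 per hour (log2). Of the Nodal, activin, Vg1 and TGF-beta ligand genes, 5 of 14 tested rose and none fell, with a median trend of 0.84 per hour (log2). Of the BMP ligand genes, 5 of 11 rose, with a median of 0.22. gdf3.S, a ligand of the Vg1 and Nodal group, had 0, 10 and 0 in VP at 5 hpf and 1756, 2147 and 2555 in VP at 9 hpf (trend 2.16 ± 0.39 per hour, SE, limma adjusted p = 6.67e-06). nodal1.L was listed at 0 in all 3 VP libraries at 5 hpf and had 629, 401 and 970 in VP at 9 hpf. bmp4.S, a ventral BMP ligand, was likewise listed at 0 in VP at 5 hpf and had 164, 268 and 442 in VP, against 82, 155 and 244 in AP at 9 hpf. These 3 ligand genes were at or near 0 in both regions at 5 hpf, whereas the ligand gene gdf1.L was listed in VP at that time. Ligand genes such as nodal1.L would not have passed the filter without the 8 and 9 hpf libraries, in which they were high. For such ligand genes a rise was partly set by the filter, so the ligand counts are not free of it.

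Antagonists rose for 6 of 24 genes tested, among them lefty.L, a secreted inhibitor of Nodal signalling, and chrd.1.S, which encodes the BMP antagonist Chordin. Co-receptors and receptor relatives rose for 1 of 11: bambi.L, a pseudoreceptor that blocks BMP and activin receptors, had 490, 669 and 147 in VP, against 288, 908 and 788 in AP at 9 hpf. Inhibitory Smads and other regulators rose for 2 of 38, tgif2.S and tgif2.L, both repressors that bind Smad complexes. Nuclear partners other than foxh1 rose for 2 of 27, the L and S copies of eomes, a T-box factor. The counts of co-receptors, regulators and nuclear partners lay near the share of all genes that rose. Among target genes, 33 of 40 Nodal and activin targets and 20 of 33 BMP targets rose, with medians of 1.59 and 1.16 per hour. None of these lists had a member that fell. Target genes such as gata6.S, listed at 0 in every experiment 1 library from 5 to 7 hpf, passed the filter only through later libraries. The antagonist genes chrd.1.S and lefty.L likewise would not have passed without the 8 and 9 hpf libraries. For all such genes a rise was partly set by the filter.

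The same lists were counted between the regions, where 0.638% of all genes were higher and 0.0704% lower in VP. Averaged over the 5 times, 3 of 14 Nodal-class ligand genes were higher in VP, namely gdf1.L, nodal5.2.L and nodal6.L, and none was lower. gdf1.L, which encodes the stored vegetal ligand Vg1, had 534, 276 and 1064 in VP, against 0, 0 and 190 in AP at 5 hpf (averaged log2 fold change 5.42 ± 0.98, SE, limma adjusted p = 2.93e-05). pcsk6.L, a convertase that cleaves ligand precursors, was the only called gene of 24 antagonists and proteases, with 640, 450 and 1120 in VP and 0, 6 and 0 in AP at 9 hpf. No BMP ligand, 0 of 11, and no co-receptor, 0 of 11, was called. Within the cell, ep300.L, a histone acetyltransferase and Smad coactivator, was higher in VP (1.83 ± 0.32, SE, adjusted p = 1.42e-05), the only call among 27 nuclear partners. tgif2.S was lower in VP (-2.79 ± 0.70, SE, adjusted p = 0.0146), the only call among 38 regulators. Of the Nodal and activin targets 3 of 40 were higher in VP, and of the BMP targets 0 of 33 were called. Among the called targets, bix1.1.S and mixer.S would not have passed the filter without the VP libraries either.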

How the data were processed

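RNA captured through the EU label was measured by RNA-seq in VP and AP regions of X. laevis blastulae, 46 libraries in all. Salmon 0.12.0 and DESeq2 are the quantification and normalization tools that the submitters' processing notes name, DESeq2 without a version. The deposited values, held here as a score, are the authors' normalized read counts rounded to whole numbers. No genome build is given in the sources. The table has 50489 entries, and the 1256 that share a name with an earlier one were summed with it, which joined 2 entries each for smad1.S, smad4.2.L and smad4.2.S. Because raw counts were not used here, depth in reads is unknown, and no count model, detection floor or counting interval was computed. The design had named a count test for the case of raw counts, and its test for normalized values was used instead.

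The test used limma 3.58.1 (R 4.3.3) on log2(value + 1), for the 19896 genes that reached 10 in 3 or more of the experiment 1 libraries. The model had 1 coefficient per region and time over the 30 libraries, with trend and robust settings. Tests were two-sided, each comparison had its own Benjamini-Hochberg adjustment, and every adjusted p given is from limma. Clutches are biological replicates, with n = 3 libraries per group, and intervals are at 95%. The model was also run on the experiment 1 values with the libraries shuffled and the values of some genes multiplied. These genes were above 0 in a large share of the libraries, a share that foxh1.2.L and smad4.1.L did not reach. That run therefore does not cover the calls of these 2 members. Technical replicates of experiment 2 were averaged and not tested.

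Named were members called in any comparison, the highest member of each role by mean, all copies of smad1, smad2, smad4 and foxh1, and up to 3 called genes per list, direction and comparison. The other members are given by range or count. Roles and lists were matched by symbol. The members, lists and tests were chosen with earlier results of these data known. A reference table of assembly v10.1 matched 33 members by symbol and 1 by synonym, and was used for names only. Alternatives changed the added constant, the filter, the scaling, the libraries in the model, the replicate block and the library weights, or left out replicates or the sparse VP library. A covariate for how many genes a library had above 0 was chosen after seeing the data. Python 3.11.15 with pandas 2.3.3 and numpy 2.4.6 prepared the tables, and matplotlib 3.10.9 drew the figures.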

Additional observations from a re-analysis of the deposited data

How the results depend on the processing

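Depth in reads is unknown, so listed zeros have no floor, and 3 libraries per group leave wide intervals for most members. For the named members, 551 alternative values kept direction and side of the threshold, 9 passed where the reported value did not, 14 fell short and 24 changed sign. Apart from foxh1.2.L and smad4.1.L, these counts cover only the averaged VP against AP comparison and the trend. Over all members tested and all comparisons, 4282 kept both, 10 passed, 14 fell short and 332 changed sign. foxh1.2.L was called in 13 of 13 alternatives for the trend (adjusted p 4.99e-11 to 0.000328) and in 14 of 14 for 9 against 5 hpf averaged over the regions. smad4.1.L was called in 10 of 13 for the trend (0.00223 to 0.217) and in 10 of 14 for the averaged change (0.00135 to 0.158). It passed the filter only through 9 hpf, the time at which it was high, so these counts are not independent support for its rise. The cause of each difference below was not tested.

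Counts of called genes are for VP against AP unless a time comparison is named. Leaving out a replicate or the sparse VP library gave 6 to 34 genes at 5 hpf, 0 to 27 at 6 hpf, 0 to 12 at 7 hpf, 4 to 83 at 8 hpf, 1 to 77 at 9 hpf and 69 to 197 averaged. It gave 11 to 398 for 9 against 5 hpf in AP, 4 to 296 in VP, 348 to 880 averaged, 491 to 1201 for the trend and 0 to 1 for the interaction. Members called were 0 to 2 in AP, 0 to 1 in VP, 1 to 2 for the averaged change and 1 to 2 for the trend, the higher count being that without the sparse library. Without that library alone, the counts were 34, 27, 10 and 7 at 5 to 8 hpf. With log2(value + 10), they were 38, 29, 18, 28 and 218 at 5 to 9 hpf, 230 averaged, and 572 in AP and 474 in VP for 9 against 5 hpf. With no filter they were 5 at 5 hpf, 8 at 8 hpf, 233 at 9 hpf, 555 for 9 against 5 hpf in AP and 18 for the interaction. With at least 10 in at least 6 libraries they were 9, 4, 3 and 28 at 6 to 9 hpf. Fitting only the groups compared gave 36, 42, 53, 19 and 161 at 5 to 9 hpf and 4 for the interaction, with 1 member at 7 hpf (smad4.1.S, -0.82, adjusted p = 0.0172), 1 at 9 hpf (foxh1.2.L), 1 for 9 against 5 hpf in AP and 1 for that change averaged. It could not be run where all 10 groups enter. Library weights gave 43, 38, 21 and 25 at 5 to 8 hpf, 260 averaged and 1 for the interaction. Adding experiment 2 gave 13, 4, 5 and 152 at 6 to 9 hpf, 236 averaged and 428 for 9 against 5 hpf in VP. With a covariate for genes above 0 they were 29, 26, 7, 6 and 141 at 5 to 9 hpf and 392 for 9 against 5 hpf in VP. In VP for 9 against 5 hpf, 1 member, foxh1.2.L, was called with log2(value + 10), no filter, recomputed median ratios, both experiments, the replicate block, library weights, the covariate or without the sparse library.

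Upper-quartile scaling moved the median of all genes by -0.49 (interaction) to 0.39 (9 against 5 hpf in AP) on the log2 scale and gave 1 gene at 6 hpf, 0 higher and 1 lower against 3 higher and 2 lower. The labels do not say that a replicate number marks 1 clutch across groups, so the numbers were not taken as pairs. Residual correlations of VP and AP libraries of 1 time were -0.024 to 0.103 where the numbers matched (15 pairs, median 0.028) and -0.113 to 0.078 where they differed (30 pairs, median -0.013). Between times within a region they were -0.038 to 0.222 where they matched (60 pairs, median 0.033) and -0.202 to 0.074 where they differed (120 pairs, median -0.017). As a hint from the data, 27 of 30 libraries correlated best, on average, with their own number. With the replicate block, 3 genes were called at 8 hpf against 0, the trend of foxh1.2.L had an adjusted p of 2.09e-08, and its change in VP had one of 0.0346.

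Estimates that changed sign had no call on either side. For VP against AP averaged, smad1.L was 0.058 with log2(value + 10), 0.25 with library weights and 0.15 with the covariate, and leaving out libraries gave -0.21 to 0.016, with 0.013 without replicate 1. foxh1.L was -0.18 with upper-quartile scaling and -0.24 with both experiments, and -0.026 to 0.10 with libraries left out. smad4.1.S was -0.084 with upper-quartile scaling, and -0.18 to 0.36 with libraries left out. smad2.L was 0.0041 with library weights, and -0.65 to 0.025 with libraries left out. The same ranges were -2.66 to 0.87 for foxh1.S, -1.22 to 0.030 for acvr2a.S, -1.09 to 1.33 for smad2.S and -0.95 to 0.34 for smad4.1.L, and at 7 hpf -1.29 to 0.50 for smad4.1.L. For the trend, upper-quartile scaling gave 0.019 for foxh1.L and 0.016 for smad4.1.S. With libraries left out, the trend was -0.15 to 0.021 for foxh1.L, -0.24 to 0.081 for smad1.S, -0.56 to 0.089 for bmpr1a.S, -0.062 to 0.44 for smad4.2.S and -0.19 to 0.017 for acvr1b.S.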
